A study of Mus musculus with 13 samples.

Results

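The 10 genes described here encode proteins that the liver secretes into plasma, namely Alb, Apoa1, Apoa2, Apoc1, Apoh, Ahsg, Ttr, Fgb, Mup20 and Itih2. They were taken by name from a table of 24170 genes measured in 4T1 mouse mammary tumors, where symbols stand in capitals (ALB, APOA1, APOA2, APOC1, APOH, AHSG, TTR, FGB, MUP20 and ITIH2). The genes were selected on their group expression values, because these were higher than in vehicle tumors after 4 cycles of cyclophosphamide (CPA) and, in part, in regrowing tumors. Their differences from vehicle in those 2 groups are therefore a description of how they were chosen. All 10 names were found in the table.

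The tumors grew from 4T1 cells, a mammary carcinoma line of BALB/c origin, placed in the fourth mammary fat pad of females of that strain. CPA is an alkylating prodrug that is activated in the liver, and it was injected intraperitoneally at 130 mg/kg every 6 days, a metronomic schedule in which a moderate dose is repeated at regular intervals. Polyadenylated tumor RNA was sequenced in 13 libraries, each made from the pooled RNA of 2 to 3 tumors. The study followed how the tumors responded as treatment was prolonged or stopped. There were 3 pools of PBS vehicle tumors and 3 pools after 2 CPA cycles, both from mice aged 10 to 11 weeks. A further 3 pools came from tumors after 4 cycles, at 12 to 13 weeks. The remaining groups had 2 pools each, at 14 to 15 weeks. One held tumors after 7 cycles, and the other regrowing tumors, which had 4 cycles and then 18 days without CPA. All groups shared the strain, the tumor line and the injection site. Mice were of equal age only within 2 pairs of groups, vehicle with 2 cycles and regrowing with 7 cycle tumors. In the other comparisons the treatment and the age of the mice cannot be told apart.

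The deposited table gives 1 FPKM value (fragments per kilobase of transcript, scaled to library depth) per gene and group. FPKM accounts for transcript length, so levels of different genes can be set side by side. There is no value per pool, so no spread, n or test stands beside any value below, and it cannot be seen whether a group value reflects all of its pools or 1 of them. Neighbouring levels in any order given here were not shown to differ. Ratios are of FPKM values, and log2 ratios were taken of FPKM + 0.1, a scale that understates the difference of low genes. A gene was counted as higher or lower where it was past 2-fold on the log2 scale and had at least 1 FPKM in the higher group. All genes that reached this minimum are called the genes tested, although no statistical test was run. In a bulk sample, a smaller number of cells of a type and less RNA per cell cannot be told apart.

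Hepatocytes make most plasma proteins, among them albumin, the apolipoproteins that coat lipid particles, the chains of fibrinogen and a large share of the protease inhibitors. Many of their genes have promoters bound by a small set of liver-enriched factors, among them HNF4 and the C/EBP family. Mammary epithelium is not a usual source of these proteins, while macrophages make some apolipoproteins, choroid plexus makes transthyretin, and intestine and yolk sac make several apolipoproteins.

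Promoter sequences were available from RefSeq (mouse GRCm38.p6) for 7 of the 10 genes, Alb, Apoa1, Apoa2, Apoh, Ahsg, Fgb and Itih2, with 2 starts for Apoa2. The 180 bases before the start are shown for the genes in which a match to the C/EBP motif was found there. Capitals mark the match, TTGCNNAA on either strand.
Alb chr5:90460690-90460869 (+ strand): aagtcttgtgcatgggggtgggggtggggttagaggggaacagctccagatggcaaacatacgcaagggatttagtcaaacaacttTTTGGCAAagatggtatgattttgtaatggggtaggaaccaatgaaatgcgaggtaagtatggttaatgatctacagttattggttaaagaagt
Fgb chr3:83049864-83050043 (- strand): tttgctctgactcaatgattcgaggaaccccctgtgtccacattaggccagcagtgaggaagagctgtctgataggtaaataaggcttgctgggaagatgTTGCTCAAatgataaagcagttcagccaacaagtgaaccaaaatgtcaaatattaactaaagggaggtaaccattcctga
Itih2 chr2:10130684-10130863 (- strand): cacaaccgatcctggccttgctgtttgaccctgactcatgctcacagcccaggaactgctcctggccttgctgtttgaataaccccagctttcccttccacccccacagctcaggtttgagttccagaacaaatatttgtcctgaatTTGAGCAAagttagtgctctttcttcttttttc
Apoa2 chr1:171221384-171221563 (+ strand): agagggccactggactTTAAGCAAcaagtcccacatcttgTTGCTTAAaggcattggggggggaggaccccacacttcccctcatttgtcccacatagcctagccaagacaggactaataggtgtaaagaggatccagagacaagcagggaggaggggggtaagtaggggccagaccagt
Ahsg chr16:22891835-22892014 (+ strand): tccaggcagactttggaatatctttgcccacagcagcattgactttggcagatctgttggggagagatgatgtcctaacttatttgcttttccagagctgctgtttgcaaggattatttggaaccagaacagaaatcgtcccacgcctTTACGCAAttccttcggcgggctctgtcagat
Counted from the start that RefSeq lists, the C/EBP match began 94 bases upstream in Alb and 80 bases upstream in Fgb. Apoa2 held 2 such matches before 1 of its starts, beginning 164 and 140 bases upstream. Ahsg and Itih2 held 1 each, beginning 32 and 33 bases upstream.

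Counted over windows of 300 bases, from 250 before to 50 after the start, TTGCNNAA was present in 5 of the 7 genes and in 12.2% of all 27025 genes with a promoter. The HNF4 motif CAAAGTCCA, searched on both strands as well, was found in 0 of the 7 and in 0.555% of all genes. The matches do not overlap one another in these sequences. The courses of these genes over the treatment groups are given below, and any relation of a match to a course was not tested. A match is only a description of the letters and was not tested as a binding site.

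Across the groups the 10 genes had their highest level after 4 cycles, which is part of how they were picked. Their summed level was 8.62 FPKM in vehicle tumors, 10.0 FPKM after 2 cycles, 83.6 FPKM after 4 cycles, 14.7 FPKM after 7 cycles and 37.0 FPKM in regrowth. Regrowth held the second highest level for 8 of the 10. The exceptions were Fgb, with its second highest level after 2 cycles, and Itih2, with its second highest after 7 cycles. Among all 12056 genes that reached 1 FPKM in any group, 13.9% had their highest level after 4 cycles.

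**Figure D1:**
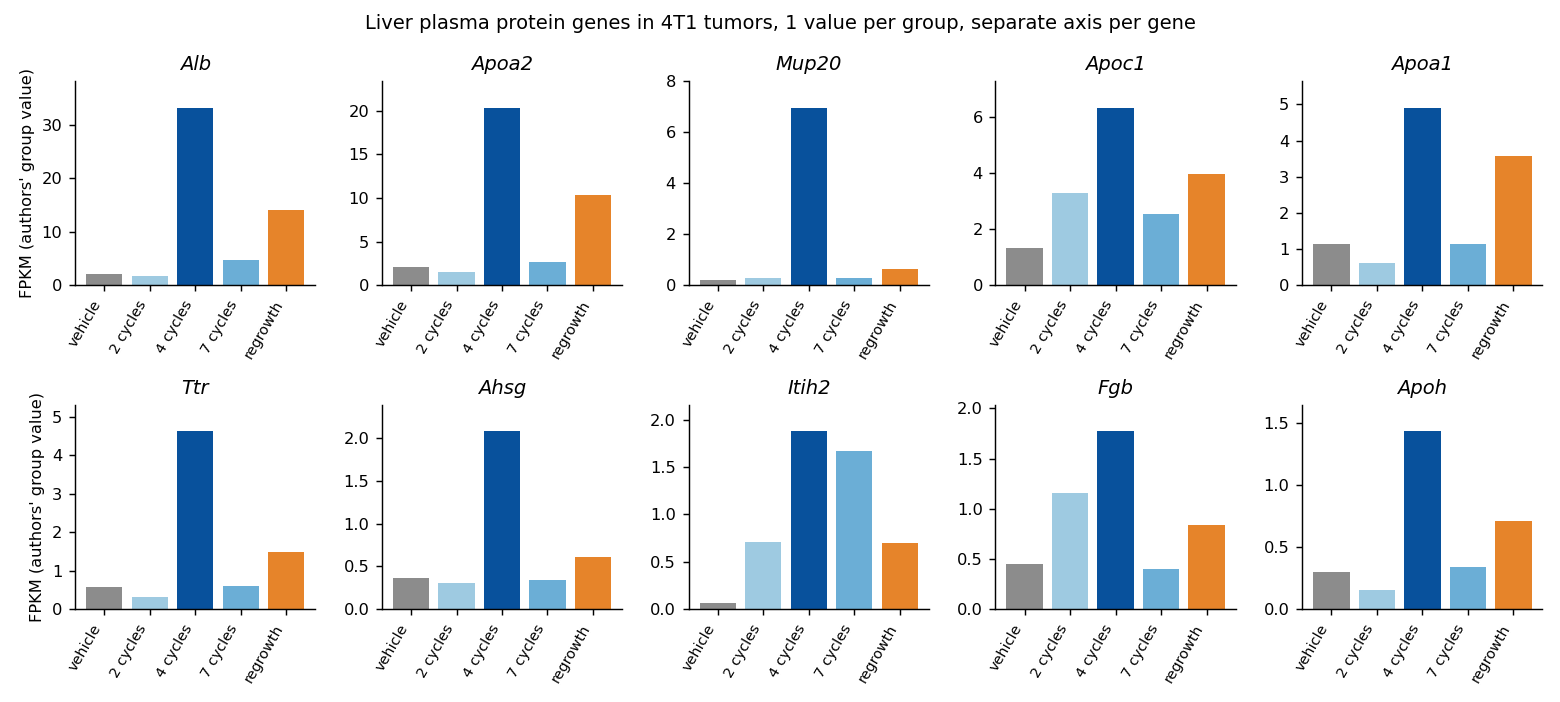
FPKM (vertical axes, starting at 0 and different for each gene) of the 10 liver plasma protein genes in vehicle tumors, after 2, 4 and 7 CPA cycles and in regrowing tumors (horizontal axes). Each bar is the authors' single value for a group, with no error bar because no value per pool was used; the bar for 4 cycles is the tallest in every panel, and Itih2 alone has a bar of nearly the same height after 7 cycles.

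Albumin (Alb, mm9 chr5:90889914-90905629), the main carrier and osmotic protein of plasma, had the highest level of the 10 after 4 cycles. Its level was 2.06 FPKM in vehicle tumors, 1.70 FPKM after 2 cycles, 33.2 FPKM after 4 cycles, 4.73 FPKM after 7 cycles and 14.1 FPKM in regrowth. The 4 cycle value was thus 16.1-fold that of vehicle, and the log2 ratio was 3.95. After 7 cycles it was still 2.29-fold the vehicle level, the largest such ratio among the genes other than Itih2. Regrowing tumors were at 6.84-fold, which kept 38.7% of the difference between 4 cycles and vehicle.

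Transthyretin (Ttr, chromosome 18), the plasma carrier of thyroxine and of the retinol-binding protein, had a course close to the median of the 10. Its level was 0.581 FPKM in vehicle tumors, 0.320 FPKM after 2 cycles, 4.62 FPKM after 4 cycles, 0.593 FPKM after 7 cycles and 1.47 FPKM in regrowth. Of the 10 profiles of log2 ratios to vehicle, that of Ttr was nearest to their median, at a distance of 0.62. Its 7 cycle level was 1.02-fold that of vehicle. The retinol-binding protein gene Rbp4, whose product travels with transthyretin, stood at 0.976 FPKM in vehicle and at 1.94 FPKM in 4 cycle tumors and did not pass 2-fold. Choroid plexus is another source of transthyretin. Of 9 choroid plexus genes 1 reached 1 FPKM, Enpp2, which many other cells express, and it was past 2-fold higher after 4 cycles, with 6.25 FPKM against 2.99 FPKM in vehicle tumors. Clic6 and Slc4a5, the next in abundance, were at 0.181 and 0.0547 FPKM after 4 cycles. The part of such cells in the level of Ttr was not tested.

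The high density lipoprotein genes Apoa2 (mm9 chr1:173155184-173156510) and Apoa1 (mm9 chr9:46036712-46038552) were both below their vehicle level after 2 cycles. Apoa2 was at 2.13 FPKM in vehicle tumors, 1.51 FPKM after 2 cycles, 20.4 FPKM after 4 cycles, 2.64 FPKM after 7 cycles and 10.4 FPKM in regrowth. Apoa1 was at 1.14, 0.606, 4.91, 1.13 and 3.58 FPKM in the same order of groups. The 4 cycle levels were 9.57-fold and 4.32-fold those of vehicle, and after 7 cycles Apoa1 was back at 0.995-fold. In regrowth Apoa1 kept 64.8% of its difference between 4 cycles and vehicle, the largest share of the 10, and Apoa2 kept 45.3%. Apoa2 was about level with Alb in vehicle tumors, at 103% of its FPKM, and at 61.3% of it after 4 cycles. Alb and Apoa2 together made up 64.1% of the summed FPKM of the 10 genes after 4 cycles and 48.6% in vehicle tumors.

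Apolipoprotein C-I (Apoc1, mm9 chr7:20274828-20278008), an exchangeable protein of lipid particles, was above vehicle in all 4 CPA groups. Its level was 1.33 FPKM in vehicle tumors, 3.27 FPKM after 2 cycles, 6.32 FPKM after 4 cycles, 2.52 FPKM after 7 cycles and 3.98 FPKM in regrowth. It was the most abundant of the 10 after 2 cycles, at 192% of the FPKM of Alb. Macrophages also express Apoc1. The macrophage genes Lyz2 and C1qa were at 440 and 159 FPKM in vehicle tumors, at 686 and 203 FPKM after 2 cycles, and at 933 and 263 FPKM after 4 cycles. They were at 516 and 193 FPKM after 7 cycles and at 376 and 169 FPKM in regrowth. In regrowth Lyz2 was thus below and C1qa slightly above its vehicle level, and Apoc1 was at 3.00-fold its own. The 19 macrophage genes found summed to 909, 1257, 1641, 995 and 787 FPKM in vehicle, 2, 4 and 7 cycle and regrowing tumors, and 1 of the 19, Lyz2, was past 2-fold higher after 4 cycles. C1qb, the third by abundance, was at 111 FPKM in vehicle and 179 FPKM in 4 cycle tumors. Genes of Kupffer cells, the liver macrophages, were low, and these were picked out after their values were seen. Clec4f was listed at 0 in all groups but 4 cycles, where it was at 0.0133 FPKM. Marco was at 0.0859 FPKM in vehicle and 0.00731 FPKM in 4 cycle tumors and Timd4 at 0.383 and 0.368 FPKM. Vsig4 and Cd5l, which Kupffer cells also express, were higher after 4 cycles. Vsig4 was at 0.300 FPKM in vehicle and 0.448 FPKM in 4 cycle tumors, and Cd5l at 0.0692 and 0.114 FPKM. The part of macrophages in the level of Apoc1 was not tested.

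Apoc1 lies in a cluster of apolipoprotein genes on chromosome 7, and its neighbours differed in course. The neighbours and partner proteins named here and below were chosen after their values were seen. Apoe (mm9 chr7:20281592-20284515), which macrophages also make in quantity, was at 720 FPKM in vehicle tumors, 966 FPKM after 2 cycles, 1512 FPKM after 4 cycles, 894 FPKM after 7 cycles and 666 FPKM in regrowth. Apoc4 (mm9 chr7:20263432-20266809), a liver apolipoprotein gene, was at 0.298, 0.406, 1.67, 0.582 and 1.56 FPKM in these groups. Regrowing tumors were thus at 0.925-fold the vehicle level for Apoe and at 5.24-fold for Apoc4, and Apoc1 lay between them at 3.00-fold. Apoc2, the activator of lipoprotein lipase, was at 3.53 FPKM in vehicle tumors, 6.94 FPKM after 4 cycles and 2.45 FPKM in regrowth.

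On chromosome 9, the neighbours of Apoa1 were also above vehicle after 4 cycles and in regrowth, but 1 of the 3, Apoa4, had its highest level after 4 cycles. Apoc3 (mm9 chr9:46041132-46043719), an inhibitor of lipoprotein lipase, was at 0.461 FPKM in vehicle tumors, 0.253 FPKM after 2 cycles, 1.58 FPKM after 4 cycles, 0.404 FPKM after 7 cycles and 1.79 FPKM in regrowth. Apoa5 was at 0.0562, 0.0703, 0.257, 0.143 and 0.375 FPKM, so that both had their highest level in regrowth, unlike the 10 genes. Apoa4 stayed at or below 0.0953 FPKM in all groups.

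**Figure D2:**
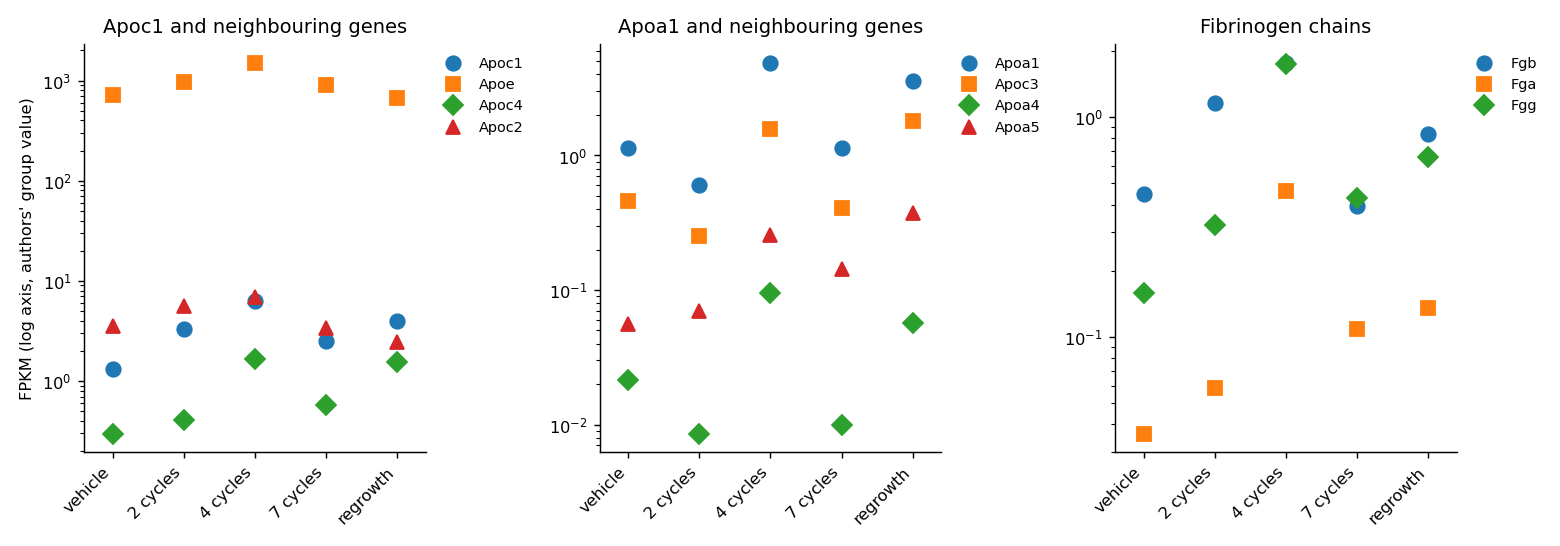
FPKM on a log axis (vertical) in the 5 groups (horizontal) for Apoc1 with its chromosome 7 neighbours, Apoa1 with its chromosome 9 neighbours, and the 3 fibrinogen chain genes; each symbol is a single group value. Apoe lies between 666 and 1512 FPKM, far above the other genes, Apoc3 and Apoa5 are highest in regrowth, and the Fgb and Fgg symbols lie on each other after 4 cycles at 1.77 and 1.74 FPKM.

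Apoh (mm9 chr11:108256610-108275710) encodes beta-2-glycoprotein I, which binds negatively charged phospholipids, and Ahsg (mm9 chr16:22892087-22899524) encodes fetuin-A, which binds calcium phosphate. Apoh was at 0.297 FPKM in vehicle tumors, 0.154 FPKM after 2 cycles, 1.43 FPKM after 4 cycles, 0.342 FPKM after 7 cycles and 0.714 FPKM in regrowth. Ahsg was at 0.369, 0.307, 2.08, 0.341 and 0.606 FPKM. Both were below 1 FPKM in every group but 4 cycles, where they were at 4.83-fold and 5.64-fold the vehicle level. In regrowth Apoh kept 36.6% and Ahsg 13.9% of the difference between 4 cycles and vehicle.

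The gene beside Ahsg, Fetub (mm9 chr16:22918454-22939841), encodes a related fetuin and was more abundant. It was at 1.06 FPKM in vehicle tumors, 0.972 FPKM after 2 cycles, 6.71 FPKM after 4 cycles, 3.84 FPKM after 7 cycles and 1.19 FPKM in regrowth. Its 7 cycle level was thus higher than its regrowth level, the reverse of Ahsg. The nearby genes Hrg and Kng1, for histidine-rich glycoprotein and kininogen, were highest after 4 cycles at 0.141 and 0.385 FPKM.

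Fgb (mm9 chr3:82846226-82853712), the beta chain of the clotting protein fibrinogen, was already above vehicle after 2 cycles. Its level was 0.448 FPKM in vehicle tumors, 1.16 FPKM after 2 cycles, 1.77 FPKM after 4 cycles, 0.394 FPKM after 7 cycles and 0.840 FPKM in regrowth. Its 4 cycle level was 3.95-fold that of vehicle, the smallest ratio of the 10, and only 1.53-fold that of 2 cycles. Fibrinogen is assembled from 3 chains. The gamma chain gene Fgg (mm9 chr3:82811817-82818971) was at 0.159, 0.321, 1.74, 0.426 and 0.657 FPKM, and the alpha chain gene Fga (mm9 chr3:82830074-82837539) at 0.0363, 0.0583, 0.463, 0.108 and 0.135 FPKM in vehicle, 2, 4 and 7 cycle and regrowing tumors. The 3 chains therefore all had their highest level after 4 cycles, but at unequal levels, and Fgg and Fga had 7 cycle levels above vehicle where Fgb did not.

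Itih2 (mm9 chr2:10016217-10052310) encodes a heavy chain of inter-alpha-trypsin inhibitor, which is transferred to hyaluronan in the matrix, and its course differed most from the rest. It was at 0.0641 FPKM in vehicle tumors, 0.714 FPKM after 2 cycles, 1.88 FPKM after 4 cycles, 1.67 FPKM after 7 cycles and 0.695 FPKM in regrowth. Vehicle was by far the lowest, and the 4 and 7 cycle levels were 29.3-fold and 26.1-fold higher. Its profile lay at a distance of 4.32 from the median of the 10, the largest of all. The genes for the other chains of the same protein were low, and each had its highest level after 4 cycles. Itih1 was at 0.00887 FPKM in vehicle and 0.0928 FPKM in 4 cycle tumors, and Itih3 at 0.0482 and 0.0906 FPKM. Ambp, which encodes the bikunin chain, was at 0.172 and 0.730 FPKM. Itih5, next to Itih2 on the chromosome, was lower in 4 cycle tumors, at 0.580 FPKM, than in vehicle tumors, at 1.18 FPKM.

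Mup20 (mm9 chr4:61711268-61715151) encodes darcin, a major urinary protein that serves as a male scent signal and is made mainly by male liver, and all mice here were female. It was at 0.200 FPKM in vehicle tumors, 0.287 FPKM after 2 cycles, 6.97 FPKM after 4 cycles, 0.301 FPKM after 7 cycles and 0.646 FPKM in regrowth. The 4 cycle level was 34.8-fold that of vehicle and 10.8-fold that of regrowth. Mup20 kept 6.58% of its difference in regrowth, the smallest share of the 10, and of the 10 only Ahsg was lower than it in regrowth.

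The other Mup genes could share reads with Mup20. The longest GENCODE transcripts of 21 other Mup genes had an identity of 64.2% to 90.6% with that of Mup20, and 4.66% of the 50-base stretches of Mup20 occurred unchanged in another Mup gene, while 0 of its 100-base stretches did. Among the 19 other Mup genes in the table, 6 reached 1 FPKM in vehicle or 4 cycle tumors, and all 6 were past 2-fold higher after 4 cycles. Of these, 4 (Mup1, Mup3, Mup7 and Mup17) were below 1 FPKM in vehicle and reached the minimum only through their 4 cycle value. Mup10 was at 2.61, 6.20, 15.3, 2.03 and 3.66 FPKM and Mup3 at 0.725, 0.661, 13.2, 0.427 and 0.986 FPKM in vehicle, 2, 4 and 7 cycle and regrowing tumors. Mup9 was at 9.42 FPKM, Mup17 at 6.41 FPKM, Mup7 at 2.05 FPKM and Mup1 at 1.97 FPKM after 4 cycles. In regrowth Mup1, Mup7, Mup9 and Mup17 were below their vehicle levels, at 0.0109, 0.0346, 0.555 and 0.431 FPKM. Several of these genes are near-identical copies of one another, so their separate levels are uncertain and they are not separate measurements.

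With the single genes described, the groups can be set side by side. The comparisons with vehicle all use the same vehicle values. After 2 cycles 2 of the 10 genes, Apoc1 and Fgb, were past 2-fold higher and 0 were lower, while 3.23% of all 11711 genes tested were higher and 0.811% lower. Only 5 of the 10 reached 1 FPKM in either group. Of the 7 genes other than Apoc1, Fgb and Itih2, a grouping made after the values were seen, 6 were below their vehicle level after 2 cycles, Mup20 being the exception. The median log2 ratio of the 10 was -0.23 and that of all genes tested 0.04. The largest ratio was that of Itih2, with a log2 ratio of 2.31, which did not reach 1 FPKM.

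After 4 cycles all 10 were past 2-fold higher than vehicle, and 3.65% of all 11718 genes tested were, with 1.6% lower. This count follows from how the genes were picked. In vehicle tumors 6 of the 10 were below 1 FPKM and reached the minimum only through their 4 cycle value. The log2 ratios ran from 1.77 for Fgb to 4.56 for Mup20, with a median of 2.50, against a median of 0.06 over all genes tested. Against 2 cycles, 8 of the 10 were higher, the exceptions being Apoc1 and Fgb at log2 ratios of 0.93 and 0.57, and 0.609% of all genes were higher and 0.592% lower. That comparison uses the 4 cycle values by which the genes were picked.

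After 7 cycles only Alb and Itih2 were past 2-fold higher than vehicle, where 4.77% of all 11766 genes tested were. Of the 10, 0 were past 2-fold lower, and of all genes 3.09% were. The median log2 ratio of all 10, of which 5 reached 1 FPKM in either group, was 0.23, with a median of 0.00210 over all genes tested. Of the 7 genes other than Apoc1, Fgb and Itih2, Alb kept the largest share of its difference between 4 cycles and vehicle, 8.56%, and Apoa1 and Ahsg were slightly below vehicle. With columns scaled to a common total Alb was at a log2 ratio of 0.90 and no longer past 2-fold, and Ttr and Apoh were below vehicle too. Compared with 4 cycles, 9 of the 10 were past 2-fold lower after 7 cycles and Itih2 was not, at a log2 ratio of -0.16. Of all genes 1.11% were lower and 1.57% higher in that comparison, which again rests on the 4 cycle values.

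In regrowing tumors all 10 were above their vehicle level, and 5 of them, Alb, Apoa1, Apoa2, Apoc1 and Ttr, were past 2-fold higher with at least 1 FPKM. Of all 11615 genes tested 1.72% were higher and 2.3% lower. These values were also used to pick the genes. The other 5 were below 1 FPKM in both groups, and the median log2 ratio of the 10 was 1.41, against -0.01 over all genes tested. Against 4 cycles, 5 were past 2-fold lower in regrowth, Alb, Ahsg, Ttr, Mup20 and Itih2, and 4.31% of all genes were lower and 0.985% higher. Fgb, Apoa2 and Apoh were just inside the 2-fold limit, at log2 ratios of -0.99, -0.96 and -0.92. The regrowth and 7 cycle mice had the same age, and 9 of the 10 genes were higher in regrowth than after 7 cycles, with Itih2 the exception. That count used no fold limit or FPKM minimum, and the share over all genes was not computed. It also rests on the regrowth values by which the genes were picked.

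**Figure D3:**
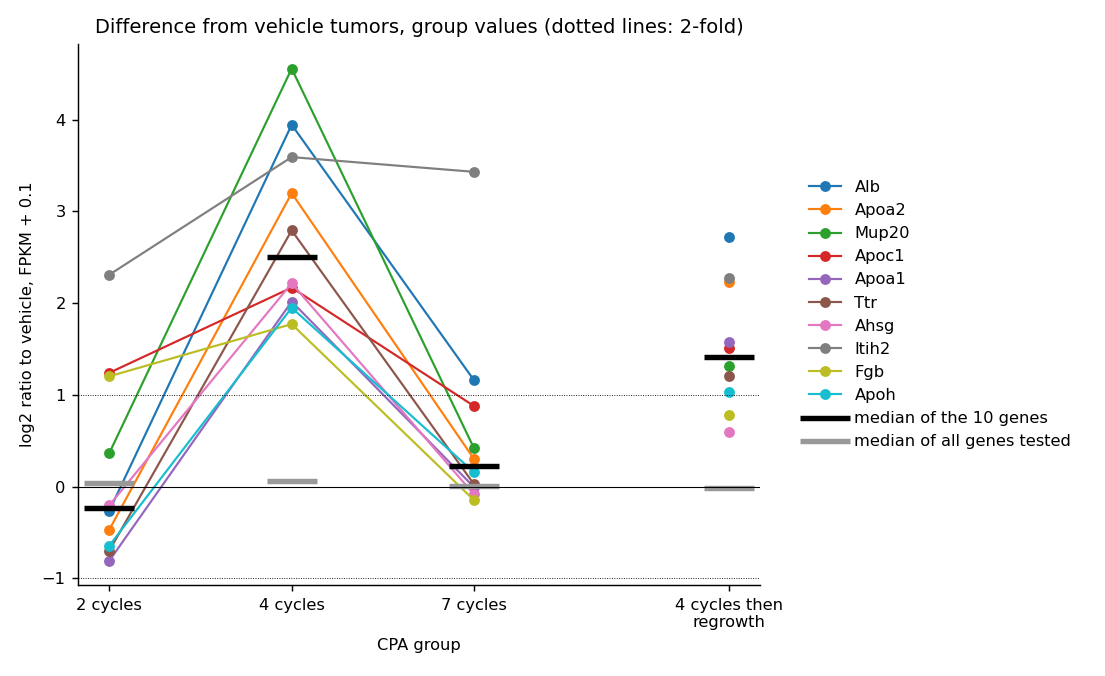
Log2 ratio to vehicle of FPKM + 0.1 (vertical axis) in the 4 CPA groups (horizontal axis) for the 10 genes; each point is a ratio of 2 group values, lines only join the points of a gene across separate groups of tumors, and black and grey bars are the medians of the 10 genes and of all genes tested. The black bars lie at -0.23, 2.50, 0.23 and 1.41, and Itih2 stays high after 7 cycles at 3.43.

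The composition of the set changed with the groups. Relative to Alb, Mup20 was at 9.70% in vehicle tumors, 21.0% after 4 cycles and 4.57% in regrowth, while Ttr was at 28.2%, 13.9% and 10.4%. Apoh and Ahsg were at 14.4% and 17.9% of Alb in vehicle tumors and at 4.32% and 6.25% after 4 cycles. Itih2 was at 3.10% of Alb in vehicle tumors, 41.9% after 2 cycles, 5.65% after 4 cycles and 35.3% after 7 cycles. The 10 genes thus did not keep a fixed ratio to one another across groups.

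Other hepatocyte-secreted genes were examined in 5 lists that hold none of the 10. Of 86 such genes found in the table, 32 reached 1 FPKM in vehicle or 4 cycle tumors. Of these 32, 19 were past 2-fold higher after 4 cycles and 0 were lower. Of all genes tested 3.65% were higher and 1.6% lower, shares that also stand beside the list counts for 4 cycles below. The minimum was reached only through the 4 cycle value by 12 of the 32, of which 11 were higher, so that part of the count follows from the minimum. Of the 20 with at least 1 FPKM in vehicle tumors, 8 were higher. Of the 86, 79 had a ratio above 1, for which no share over all genes was computed. The median log2 ratio of the 86 was 1.00, with 54 of them below 1 FPKM in both groups. The 0.06 of all genes tested covers only genes that reached the minimum, so the 2 medians are of unlike sets. After 2 cycles 25 of the 86 reached the minimum, with 9 higher and 0 lower, against 3.23% and 0.811% of all genes tested. After 7 cycles 24 reached it, with 9 higher and 1 lower, against 4.77% and 3.09% of all genes. In regrowth 26 reached it, with 5 higher and 2 lower, against 1.72% and 2.3% of all genes. Median log2 ratios in those 3 groups were 0.04, 0.09 and 0.28.

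Of the 16 lipid carrier genes 6 reached the minimum in vehicle or 4 cycle tumors. Past 2-fold higher after 4 cycles were 4, Apoe, Pltp and, only through their 4 cycle value, Apoc3 and Apoc4. The phospholipid transfer protein gene Pltp was at 7.59 FPKM in vehicle tumors, between 21.5 and 23.8 FPKM at the 3 times on treatment and at 7.75 FPKM in regrowth. Among the binding proteins, Gc, the vitamin D-binding protein and a relative of albumin, was at 0.238, 0.116, 2.77, 0.279 and 0.882 FPKM in vehicle, 2, 4 and 7 cycle and regrowing tumors. Hamp, the iron hormone hepcidin, was at 0.343, 0.212, 1.62, 0.387 and 1.27 FPKM. The haptoglobin gene Hp behaved otherwise, with 14.4 FPKM in vehicle tumors, 47.4 FPKM after 2 cycles, 39.7 FPKM after 4 cycles, 61.1 FPKM after 7 cycles and 14.2 FPKM in regrowth. Of the 14 genes in this list 7 reached the minimum and 3 were past 2-fold higher after 4 cycles. Gc and Hamp reached the minimum only through their 4 cycle value.

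Of the 22 protease inhibitor genes, 6 reached the minimum and 4 were past 2-fold higher after 4 cycles, Fetub, Serpina1a, Serpina1c and Serpina3k. The 3 Serpina genes reached the minimum only through their 4 cycle value. Serpina3k was at 0.223 FPKM in vehicle and 1.12 FPKM in 4 cycle tumors. Serpina1a and Serpina1c, copies of the alpha-1-antitrypsin gene, had 4 cycle levels of 1.88 and 1.31 FPKM, against vehicle levels of 0.213 and 0.295 FPKM, and their reads may be shared with one another. In coagulation, 3 of 12 reached the minimum and 2 were higher, Fgg, only through its 4 cycle value, and the initiating factor F7. F7 was highest after 2 cycles at 5.09 FPKM and was 0.372 FPKM in regrowth, below its vehicle level of 1.31 FPKM.

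In the complement and acute phase list 10 of 22 reached the minimum and 6 were past 2-fold higher after 4 cycles. Several of the 6 had another course, and Saa1, Saa2 and Orm1 reached the minimum only through their 4 cycle value. The serum amyloid genes Saa1 and Saa2 were at 0.680 and 0.665 FPKM in vehicle tumors. They stood at 4.56 and 5.53 FPKM after 4 cycles and at 12.5 and 9.21 FPKM after 7 cycles. Lbp, which binds bacterial lipopolysaccharide, was at 1.96 FPKM in vehicle tumors, 18.5 FPKM after 4 cycles, 23.7 FPKM after 7 cycles and 7.50 FPKM in regrowth. These 3 genes were thus highest after 7 cycles, where 8 of the 10 plasma protein genes were within 2-fold of vehicle on the log2 scale. Complement genes C4b and Cfb, at 24.7 and 36.2 FPKM after 2 cycles, were already near their 4 cycle levels of 28.9 and 34.7 FPKM. The acute phase gene Orm1 was at 0.431 FPKM in vehicle and 1.69 FPKM in 4 cycle tumors. Many cells other than hepatocytes express genes of this list.

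Some hepatocyte enzymes that are not secreted were also higher after 4 cycles. Of 51 such genes 14 reached 1 FPKM in vehicle or 4 cycle tumors, and 6 were past 2-fold higher and 0 lower. Of the 6, 5 (Cyp3a11, Cyp2e1, Pck1, Cyp2f2 and Gnmt) reached the minimum only through their 4 cycle value, and of the 9 genes at 1 FPKM or more in vehicle tumors only Fabp1 was higher. In all, 36 of the 51 had their highest level after 4 cycles, but 37 of the 51 were under the minimum in vehicle and 4 cycle tumors. The share over all genes as low as these was not computed. Fabp1, the fatty acid-binding protein of liver and intestine, was at 1.06, 0.673, 8.06, 1.04 and 4.26 FPKM in vehicle, 2, 4 and 7 cycle and regrowing tumors. Cyp3a11, a drug-metabolizing enzyme, was at 0.255, 0.143, 3.78, 0.126 and 0.702 FPKM. Cyp2e1 and the gluconeogenic enzyme gene Pck1 were instead highest after 2 cycles, at 4.27 and 2.60 FPKM, and adipocytes also express Pck1. Cyp2f2, which airways also express, was highest after 7 cycles at 2.13 FPKM, and Gnmt, a methyltransferase, was at 1.18 FPKM after 4 cycles. The urea cycle genes Arg1 and Ass1 and the tyrosine breakdown gene Fah were the most abundant in vehicle tumors, at 82.6, 19.2 and 25.4 FPKM, and did not pass 2-fold in any group. Macrophages express Arg1, and many cell types Ass1.

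Most hepatocyte transcription factor genes were too low to be counted. Of 17 such genes 2, Cebpb and Cebpa, reached 1 FPKM, and neither was past 2-fold in any of the 4 comparisons with vehicle. Cebpb was between 98.3 and 146 FPKM and Cebpa between 5.65 and 10.9 FPKM across the groups, and both are expressed in other cell types, myeloid cells among them. Hnf4a, a liver-enriched factor singled out after its values were seen, stood at 0.00627 FPKM in vehicle tumors. It stood at 0.0219 FPKM after 4 cycles and at 0.00820 FPKM in regrowth. The 4 cycle level of Hnf4a was thus 3.49-fold that of vehicle, with both levels far below the minimum of 1 FPKM. Among the other factors under the minimum, Creb3l3 was at 0.409 FPKM in vehicle and 0.242 FPKM in 4 cycle tumors. Nr1h4, chosen after its values were seen, was at 0.0125 and 0.0574 FPKM, and Prox1, chosen likewise, at 0.0189 and 0.00389 FPKM. Of the 17 genes 12 had a ratio above 1 after 4 cycles, for which no share over all genes was computed. Under the minimum in both groups were 15 of the 17. For a gene of 1 kb, the smallest non-zero value was 0.00580 to 0.0119 FPKM in the 5 groups. It is smaller for a longer transcript, and the length of Hnf4a was not taken into account.

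The labelled tissue was checked by its epithelial markers. Krt18 was at 315, 270, 303, 418 and 421 FPKM and Krt8 at 267, 262, 295, 348 and 331 FPKM in vehicle, 2, 4 and 7 cycle and regrowing tumors. Alb after 4 cycles was thus well below either keratin. All 12 genes of this list reached 1 FPKM in vehicle or 4 cycle tumors. Past 2-fold higher were 2 of them after 4 cycles, 6 after 7 cycles and 4 in regrowth, with median log2 ratios of 0.45, 1.00 and 0.75. The epithelial transcription factor genes Elf3 and Trp63 were at 2.16 and 0.217 FPKM in vehicle tumors and at 4.78 and 1.11 FPKM after 4 cycles. Of 15 genes of other liver cells, such as sinusoidal endothelium, stellate cells and bile duct, 6 reached 1 FPKM and 0 of these were past 2-fold higher after 4 cycles. The most abundant were Spp1, Krt7 and Epcam, at 1160.5, 100.3 and 72.6 FPKM in vehicle tumors, which carcinoma cells express too. The other 9, sinusoidal and stellate cell genes among them, were under the minimum in both groups and could not be counted. Stab2 and Clec4g, markers of liver sinusoidal endothelium singled out after their values were seen, were at 0.0254 and 0.0188 FPKM after 4 cycles. Of 14 intestinal and yolk sac genes 3, Rbp2, Lgals4 and Mttp, reached 1 FPKM and none of these 3 was past 2-fold in any comparison with vehicle. Rbp2 was at 2.80 FPKM in vehicle and 5.04 FPKM in 4 cycle tumors, Lgals4 at 1.24 and 0.851 FPKM and Mttp at 1.04 and 1.11 FPKM. Afp, the fetal relative of albumin beside it on chromosome 5, was at 0.0854 FPKM in vehicle tumors, 0.392 FPKM after 4 cycles and 0.401 FPKM after 7 cycles, under the minimum throughout.

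Whether hepatocyte RNA has a part in the levels of the 10 genes was not tested.

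**Figure D4:**
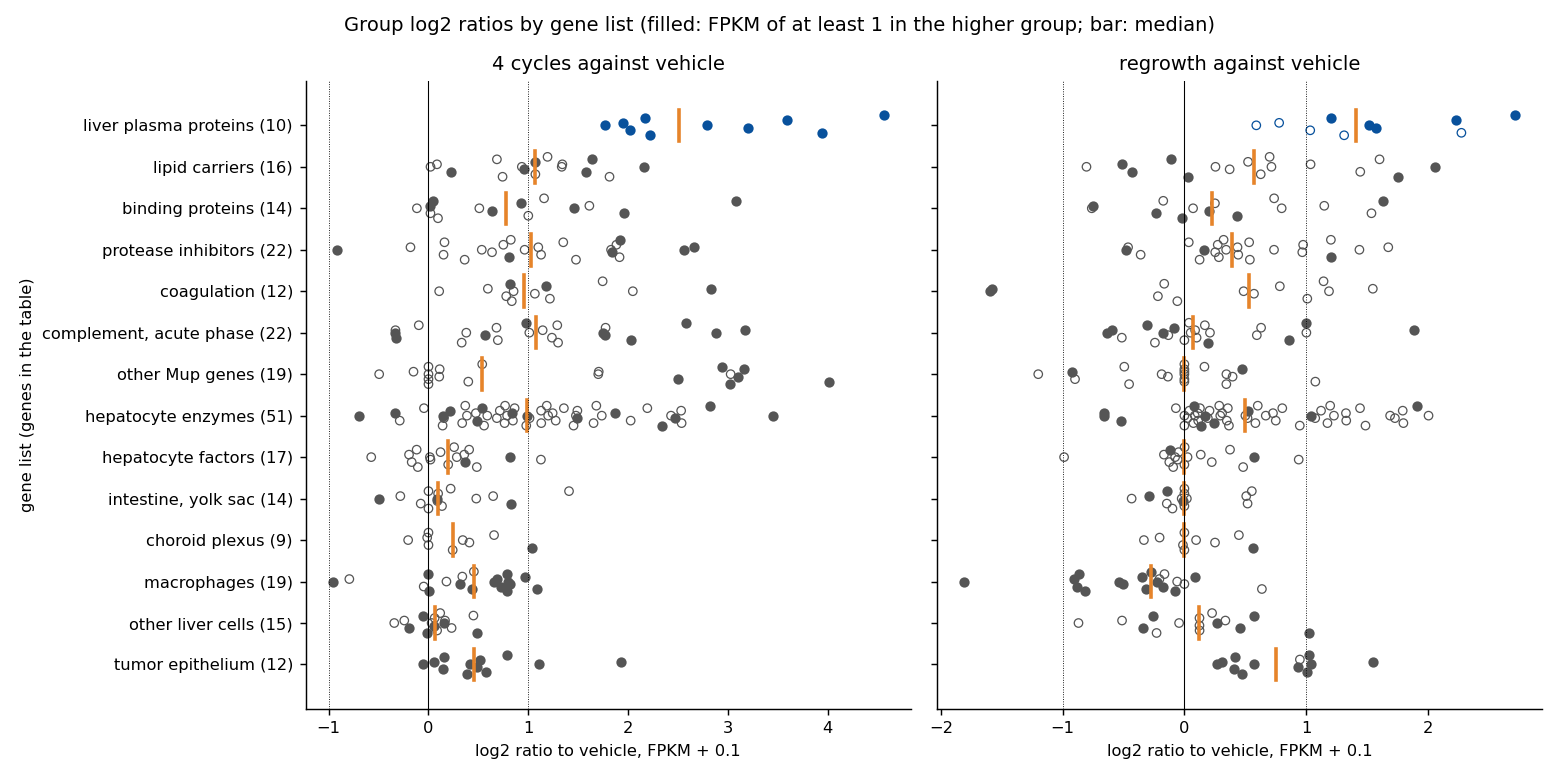
Log2 ratio to vehicle of FPKM + 0.1 (horizontal axes) after 4 cycles (left) and in regrowth (right) for the 10 liver plasma protein genes and 13 gene lists (vertical axis, with the number of genes found). Each symbol is a gene, filled where the higher group has at least 1 FPKM, orange bars are medians and dotted lines mark 2-fold. The 10 genes have the highest medians because they were picked for these differences. After 4 cycles the 5 lists of hepatocyte secreted proteins and the enzymes have medians from 0.78 to 1.08, and the other Mup genes 0.54. Hepatocyte factors and other cells have medians from 0.06 to 0.45. In regrowth tumor epithelium has the highest median of the 13 lists, 0.75, and the complement and acute phase list is at 0.07. The other lists of hepatocyte secreted proteins and the enzymes have medians from 0.23 to 0.58. The remaining lists, the other Mup genes among them, have medians of at most 0.12.

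The genes most like the 10 were found by the distance between their 4 log2 ratios to vehicle and the median profile of the 10, among 12046 other genes that reached 1 FPKM in any group. The nearest was Serpina1a at a distance of 0.36, followed by Hamp at 0.65, Gc at 0.72, Fabp1 at 0.73 and Serpina1c at 0.78. Mir7074, a microRNA precursor gene whose short span makes its FPKM uncertain, came next at 0.97, before Apoc4 at 1.09 and Apoc3 at 1.14. Of these 8 nearest genes 7 belong to the hepatocyte lists, which hold 53 (0.440%) of the genes searched. Since the profile is that of genes picked for their values, and most of the 7 reached 1 FPKM only in the groups where they are high, this is a description. Nearest to Alb itself were Apoa2 at 1.25, Gc at 1.81, Mup20 at 1.81, Fabp1 at 1.85 and Fgg at 1.89. These distances rest on 4 ratios that share the vehicle value.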

How the data were processed

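The authors used TopHat2, featureCounts and edgeR on genome build mm9, as the submitters' processing notes state. Versions, like the annotation, were not given in the sources used here. As deposited, the table holds the authors' FPKM, 1 value per gene and group, from strand-specific libraries of polyadenylated RNA. The authors' 12 columns of ratios, fold changes and p-values for CPA against vehicle, and 3 repeats of the vehicle column, were not used. Of 24197 lines 27 held a date in place of a symbol and were left out. Depth per library is not in the table.

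The 10 genes and the gene lists were chosen with earlier results of these data known. Log2 ratios used a pseudocount of 0.1 FPKM, and genes with at least 1 FPKM in the higher group were set against a 2-fold limit, with Python 3.11.15 and pandas 2.3.3. This rule was tried on simulated data only, and how often it errs with the unknown spread between these pools was not tested. Named were the 10 genes, list genes past 2-fold after 4 cycles (at most 6 per list), for enzymes, factors and other cells also the 3 most abundant in vehicle, and the 8 and 5 genes nearest to the median profile and to Alb. Other names were chosen after their values were seen. Promoters came from RefSeq (GRCm38.p6) and Mup transcripts from GENCODE. A planned motif and a factor gene are not reported here. Alternatives were other pseudocounts, FPKM minimums, folds, centring, scaling and the set without Apoc1 or Mup20.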

Additional observations from a re-analysis of the deposited data

How the results depend on the processing

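Under the alternatives tried, 126 of the counts stayed within 1.5 times of the value reported and 20 did not, and 38 of the medians stayed within 1.5-fold of it as ratios (0.58 on the log2 scale) and 4 did not. Medians near 0, after 2 and 7 cycles, moved more in proportion. After 4 cycles all 10 genes remained past 2-fold under the other settings, with the exception of a pseudocount of 1 and of a 4-fold limit, which left 8 each. Centring on the median of all genes, or leaving out Apoc1 or Mup20, moved nothing beyond that range. A pseudocount of 1, which shrinks low genes, gave medians over the 10 genes of 1.56 after 4 cycles, 0.66 in regrowth, 1.56 for 4 against 2 cycles and -1.33 for 7 against 4 cycles. With it 0 of the 10 were higher after 2 cycles, 1 after 7 cycles, and 3 were lower in regrowth than after 4 cycles. Among the related hepatocyte genes (secreted, Mup and enzymes) it gave 2 higher and 0 lower in regrowth and 0 lower after 7 cycles, where 7 higher, 2 lower and 2 lower were reported. Without an FPKM minimum 8 of the 10 were higher in regrowth, and 77 related genes were higher after 4 cycles, where 31 were reported, and 35 in regrowth. A minimum of 0.5 gave 8 of the 10 and 20 related genes higher in regrowth. At 4-fold 0 of the 10 were higher after 2 cycles, 1 after 7 cycles and 2 in regrowth, and 1 was lower in regrowth than after 4 cycles. Scaling the columns to a common total, chosen after seeing the data, shifted the median log2 ratio of all genes tested by -0.08 after 2 cycles, -0.16 after 4 cycles, -0.27 after 7 cycles and -0.23 in regrowth, and the median of the 10 genes after 7 cycles became -0.0069. With it 1 of the 10 was higher after 7 cycles, and 1, 5 and 4 related genes were lower after 4 cycles, after 7 cycles and in regrowth. With a pseudocount of 0.01, 1 related gene was lower after 4 cycles.

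No paired analysis was possible because the table holds 1 value per group, so the replicate block, leaving out each pool and DESeq2 were not run. Depth limits the low genes most. In vehicle tumors 6 of the 10 lie below 1 FPKM, and no interval can be given for them.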
